A study of Mus musculus with 12 samples.

Results

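Homeobox genes encode transcription factors that bind DNA through the homeodomain, a compact fold of helices of which the third lies in the major groove and reads the bases there. The families differ in the domains that accompany the homeodomain and in their partner proteins: LIM homeodomain proteins are bridged by LDB cofactors, Six2-related proteins work with EYA coactivators, and MEIS, PBX and PKNOX proteins, which carry a longer loop in the homeodomain, bind DNA together with other homeodomain proteins. In the inner ear, members of these families are known from the patterning of the otocyst, the specification of its sensory and non-sensory regions, and the differentiation of hair cells and spiral ganglion neurons. The 57 homeobox genes described here are a listed set from 10 family groups, namely MSX, DLX, LIM, BAR and HMX, Six2-related, POU, MEIS with PBX and PKNOX, IRX, OTX with GBX, and ZFHX with CUX. They were taken by gene name, and each matched 1 of the 55416 genes in the count files. Their expression was examined in the 2 types of sensory cell of the mouse cochlea, the inner hair cells (IHCs), which pass sound information to the auditory nerve, and the outer hair cells (OHCs), which amplify it.

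The libraries were 6 of IHCs and 6 of OHCs from the organ of Corti at postnatal day 0 (P0), each made from RNA of cells pooled from several pups. The labels give the genotype of all 12 as WT, while the sort relied on reporter alleles: Atoh1-GFP, which marks hair cells, Insm1-GFP-Cre, which is active in OHCs at this age, and R26-TdTomato, a reporter switched on by Cre. IHCs were collected by GFP alone and OHCs by GFP together with TdTomato, so the Insm1-GFP-Cre allele takes part in defining the OHC group, and the TdTomato signal records past Cre activity. Values per library are CPM, in which each library is brought to the same size with the trimmed mean of M-values (TMM), levels of different genes are compared as TPM, in which counts are first divided by exon length, and differences are log2 fold changes of OHCs against IHCs from edgeR's quasi-likelihood test, with p-values adjusted by the Benjamini-Hochberg method over 13269 tested genes. No label says whether the pools of a cell type shared pups, so the p-values measure the spread between pools.

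Counts on genes ranged from 29564827 to 44017309 per library, and ribosomal RNA took 21.5% to 56.9% of them, with the highest share in IHC replicate 1. The 57 members together held 24444 to 54345 counts per library. A floor of 3 counts corresponds to 0.0647 to 0.196 CPM. The IHC markers Tbx2, Fgf8, Slc17a8 and Otof were all IHC-enriched, and 4 of 5 OHC markers (Insm1, Neurod6, Bcl11b and Bmp2) were OHC-enriched. The sort itself used an Insm1 allele, so the Insm1 call is not independent of how the OHC group was defined. Markers of other cells were present at unequal levels: the summed level of 6 greater epithelial ridge markers was 625 to 1138 CPM in IHC and 114 to 481 CPM in OHC libraries, that of 8 spiral ganglion neuron markers 825 to 1512 and 218 to 439 CPM, and that of 6 endothelium markers 0.136 to 12.96 and 9.97 to 164 CPM. Single genes led several of these sums: Tecta held 86.7% to 95.4% of the greater epithelial ridge sum in IHC and 45.7% to 83.9% in OHC libraries, and the sum without Tecta was 42.3 to 109.8 CPM in IHC and 38.9 to 85.8 CPM in OHC libraries, ranges that overlapped. Nefl and Nefm supplied most of the neuron sum. In pools, fewer cells of a type and less RNA per cell cannot be told apart.

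Of the 57 members, 26 passed the filter on low counts and were tested. Another 21 exceeded 3 counts in at least 1 library but were not tested, and 10 stayed at or below 3 counts in every library. Those 10 were Msx2, Msx3, Dlx5, Lhx1, Lhx5, Lhx8, Barx1, Hmx1, Hmx2 and Irx1, of which Msx3 and Barx1 had no count in any library. Expression of these 10 was not detectable above the floor at this depth. 1 member, Msx1, was IHC-enriched and 0 were OHC-enriched by the quasi-likelihood test, where 3.81% of all tested genes were IHC-enriched and 2.44% OHC-enriched. The member share, 3.85% of 26, was near the background of IHC-enriched calls. At an unadjusted p under 0.05 there were 4 members, Msx1, Irx5, Lhx4 and Zfhx3. By DESeq2, which retained 34 members, 2 were IHC-enriched (Msx1 and Irx5) against 7.94% of all genes, and 3 were OHC-enriched (Lhx4, Lmx1a and Otx2) against 9.43%.

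The members form 7 classes by the residue that the homeobox encodes at position 50 of the homeodomain, a position on the recognition helix known to influence which bases are preferred next to the core site. The homeobox was found in the coding sequence of all 57 members by the pattern of the third helix, a tryptophan at position 48, a phenylalanine or tyrosine at 49, an asparagine at 51 and an arginine or lysine at 53. Zfhx3 and Zfhx4 hold 3 matches each, all with glutamine at position 50, and the other members 1. Codon 50 encodes glutamine in 28 members, cysteine in 7 (the POU genes), lysine in 7 (the Six2-related and OTX genes), alanine in 5 (IRX), isoleucine in 5 (MEIS and PKNOX), glycine in 3 (PBX) and histidine in 2 (CUX). The 45 bases for positions 43 to 57 are shown for the member of each class with the highest mean TPM in either cell type, from GRCm39 and the GENCODE vM39 coding sequence, 5′ to 3′ on the coding strand, with codon 50 in capitals. They lie at chr13:72778915-72778959 (plus strand) for Irx2, chr12:73159143-73159187 (minus) for Six4, chr13:116439636-116439680 (minus) for Isl1, chr1:42737638-42737682 (plus) for Pou3f3, chr17:34813686-34813813 (plus) for Pbx2, chr17:31821820-31822188 (plus) for Pknox1 and chr5:136304308-136308315 (minus) for Cux1. For Pbx2, Pknox1 and Cux1 the stretch is interrupted by an intron, which is left out. In the isoleucine class Pknox1 led in OHCs, while Meis3 had the higher mean in IHCs (9.62 against 9.21 TPM).
Irx2: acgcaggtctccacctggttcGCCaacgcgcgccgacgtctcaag
Six4: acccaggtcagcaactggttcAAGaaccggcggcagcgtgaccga
Isl1: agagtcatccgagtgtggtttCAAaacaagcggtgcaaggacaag
Pou3f3: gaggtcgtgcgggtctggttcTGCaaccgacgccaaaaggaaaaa
Pbx2: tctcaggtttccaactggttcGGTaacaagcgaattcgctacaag
Pknox1: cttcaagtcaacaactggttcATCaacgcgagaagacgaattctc
Cux1: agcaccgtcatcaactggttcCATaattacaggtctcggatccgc
The tryptophan codon at position 48 and the asparagine codon at 51 follow from the search pattern, and the classes were defined by codon 50. At position 49, where the pattern allowed phenylalanine or tyrosine, all 7 genes encode phenylalanine. Within this listed set, which leaves out other homeobox genes, levels were spread unevenly over the classes. Of the 28 glutamine members 8 reached a mean TPM of 1 in at least 1 cell type and 9 stayed at or below the floor. Of the 29 others 18 reached that level and 1, Irx1, stayed at the floor. Lmx1a among the 8, and Pou3f4 and Pou4f1 among the 18, had medians below 1 TPM in both cell types.

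Msx1, a repressor of the MSX family known from craniofacial, tooth and limb development, was detected in every IHC library and had at most 1 count in an OHC library. Its lowest, median and highest values were 1.44, 5.95 and 14.9 CPM in IHCs, from 53 to 485 counts. In OHCs, 5 libraries had no count and replicate 1 had 1 count, 0.0216 CPM. Every IHC library lay above every OHC library, and the lowest IHC value came from replicate 6. The pooled counts, 1271 in IHCs and 1 in OHCs, gave a ratio of 1394 with an exact 95% counting interval of 250 to 55087, which covers counting error only. Without any 1 of the 12 libraries the pooled ratio stayed at 1027 or more where an OHC count remained, and without OHC replicate 1 it was at least 368, against 3 counts over the group. The fitted log2 fold change was -9.75 (SE 1.26, adjusted p = 6.91e-05 by the quasi-likelihood test). This fitted value depends on the small count added to zeros and is no bound. Msx1 was IHC-enriched in all 12 fits that left out 1 library, with log2 fold changes of -10.85 to -9.37. All 6 IHC libraries lay above all 6 OHC libraries for 1.58% of the genes with a count.

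The level of Msx1 in IHCs was modest beside the other members, with a mean of 4.67 TPM ± 3.72 (SD, n = 6) and rank 18 of 57. Summed levels of markers of several other cells were also higher in IHC than in OHC libraries. The summed level of 9 mesenchyme markers, cells in which Msx1 is known to act, was 42.6 to 57.8 CPM in IHC and 7.03 to 27.4 CPM in OHC libraries, ranges that did not overlap. Lum held 16.2% to 65.0% of this sum in IHC and 0.488% to 88.6% in OHC libraries. Without Lum the ranges overlapped, at 15.9 to 38.0 CPM in IHC and 2.53 to 27.2 CPM in OHC libraries. Of these 9 markers 5 were tested, 0 passed the quasi-likelihood test, and Twist2 had no count in any library. Of the greater epithelial ridge markers 1 of 3 tested, Tecta, was IHC-enriched, while Lgr5 (log2 fold change -0.08) and Otoa (0.60) did not pass the test and the untested Epyc reached 16.1 CPM in an OHC and at most 0.0817 CPM in an IHC library. The part of these cells in the Msx1 result was not tested.

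The paralogs of Msx1 were not detectable above the floor: Msx2 had at most 2 counts in a library and Msx3 none. They are close relatives of Msx1 and could in principle share reads with it. No exon of Msx1 (chr5:37977829-37981928, minus strand) overlaps one of another annotated gene.

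**Figure D1:**
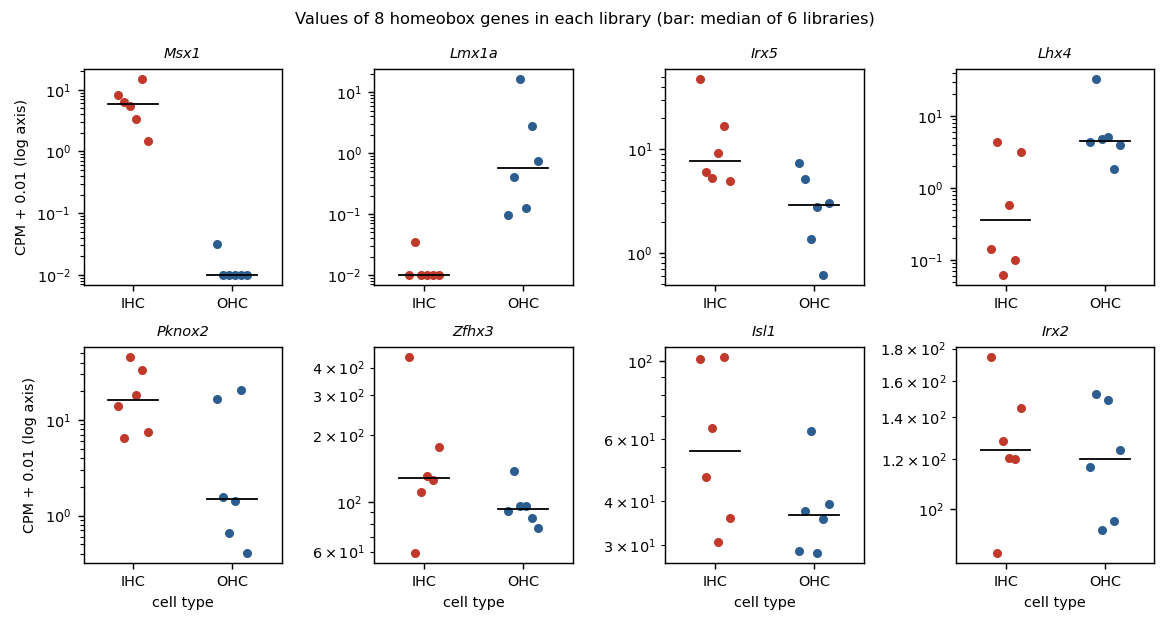
CPM plus an offset of 0.01 on a log axis for 8 homeobox genes, with 1 point per library (red IHC, blue OHC) and a bar at the median of 6 libraries. Msx1 and Lmx1a are the members whose groups do not overlap, in opposite directions, and the OHC values of Lmx1a span 0.0862 to 16.4 CPM.

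Lmx1a, a LIM homeodomain gene needed for the morphogenesis of the inner ear and expressed in its non-sensory epithelium, was the other member whose groups did not overlap. It was detected in every OHC library at 0.0862, 0.561 and 16.4 CPM (lowest, median and highest), from 4 to 603 counts. In IHCs it had a single count, in replicate 2, and none in the other 5 libraries. Every OHC library was thus above every IHC library, a pattern held by 1.86% of the genes with a count. The pooled counts of 738 and 1 gave an OHC to IHC ratio of 673 (exact 95% counting interval 120 to 26621), and OHC replicate 3 alone supplied 79.9% of the summed CPM. Without that library the pooled ratio was 147 (26.0 to 5868). Lmx1a did not pass the filter on low counts. Without a filter, where 3.34% of genes were OHC-enriched, the quasi-likelihood test gave an adjusted p of 0.0042, and DESeq2 gave 1.35e-06.

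Markers of non-sensory cells were uneven over the same libraries. The summed level of 4 markers of the cochlear roof and Reissner's membrane was highest in OHC replicate 3, at 69.3 CPM, and reached 22.2 and 19.5 CPM in OHC replicates 1 and 4, which had the lowest OHC values of Lmx1a, 0.0862 and 0.116 CPM, against 0 to 1.36 CPM in IHC libraries. Oc90, an otoconial protein gene and the only tested marker of this list, was OHC-enriched and supplied 94.7% to 100% of the sum in OHC libraries. Without Oc90 the sum was at most 0.298 CPM in an OHC and 0.0654 CPM in an IHC library, so it rests on 1 gene. Of the 4 markers 2 stayed at or below the floor in every library, and Vmo1 and Kcnq1 had no count in IHCs. Endothelium markers were also highest in OHC replicate 3, at 164 CPM, and 4 of 5 tested were OHC-enriched. OHC replicates 2, 5 and 6, with 0.396, 2.77 and 0.726 CPM of Lmx1a, had roof marker sums of 0.823, 5.10 and 0.445 CPM. The part of these cells in the Lmx1a result was not tested. Its paralog Lmx1b, whose homeobox encodes the same 60 residues with 149 of 180 bases identical, showed another pattern: OHC replicate 1 had 2.11 CPM, and the other 11 libraries lay between 0 and 0.398 CPM.

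Among the remaining LIM genes, Isl1 was by far the most abundant. Isl1, which marks the prosensory domain and is also expressed in spiral ganglion neurons, had 30.7, 55.7 and 103 CPM in the IHC libraries (lowest, median and highest), against 28.6, 36.6 and 63.1 CPM in the OHC libraries. The groups overlapped, with 3 of 6 IHC libraries above every OHC library, and the highest OHC value, in replicate 3, stood apart from the next, 39.3 CPM. The log2 fold change was -0.71 (SE 0.34, adjusted p = 0.232 by the quasi-likelihood test), with a 95% interval of -1.43 to 0.00. Isl1 supplied a median of 81.2% of the summed LIM TPM in IHC and 65.9% in OHC libraries. Its paralog Isl2, whose homeodomain differs at 1 residue, had medians of 5.66 and 4.20 CPM.

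Lhx4, a LIM gene known from pituitary and motor neuron development and a relative of the hair cell gene Lhx3, had 0.0523, 0.355 and 4.37 CPM in the IHC libraries, against 1.83, 4.56 and 32.5 CPM in the OHC libraries. The groups overlapped through IHC replicates 2 and 6, which held 4.37 and 3.19 CPM, and OHC replicate 2 supplied 53.3% of the summed CPM. The log2 fold change of 2.63 (SE 1.10) did not pass the quasi-likelihood test (adjusted p = 0.164) and was 1.51 without OHC replicate 2 (adjusted p = 0.482). DESeq2 gave an adjusted p of 0.0443. A fit with the replicate number as a block, by which 2.95% of all genes were OHC-enriched, gave 0.0475, although no label says that the numbers pair the libraries. Lhx6 had medians of 2.55 CPM (IHCs) and 0.253 CPM (OHCs), and its log2 fold change was -1.07 (SE 1.07, adjusted p = 0.601). The untested Lhx2 and Lhx9 had at most 9 and 12 counts in a library.

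The IRX genes encode homeodomain proteins that pattern the neural tube, heart and limb, and lie in the genome in paralogous clusters. Irx2 had the highest mean TPM of all 57 members in both cell types, 94.7 ± 42.5 TPM in IHCs and 113 ± 30.1 TPM in OHCs (SD, n = 6 each), which ranked 496 and 425 among 54749 genes. In CPM the lowest, median and highest values were 85.2, 124 and 175 in IHCs and 92.5, 120 and 152 in OHCs. The ranges were nearly the same. The log2 fold change was -0.08 (SE 0.22, adjusted p = 0.865 by the quasi-likelihood test), and its 95% interval of -0.55 to 0.38 lies within 1 on either side of 0. Irx2 made up a median of 91.3% of the summed IRX TPM in IHCs and 96.2% in OHCs.

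Irx5, which encodes the same 60 residues as Irx2 in the fixed window of 180 bases read here, was lower in level and less even. It had 4.96, 7.68 and 47.8 CPM in the IHC libraries, against 0.600, 2.88 and 7.35 CPM in the OHC libraries. The groups overlapped, since OHC replicates 1 and 2 exceeded the lowest IHC library, and IHC replicate 1 stood far above the others. The log2 fold change of -2.15 (SE 0.76) had an adjusted p of 0.099 by the quasi-likelihood test and was -1.34 without IHC replicate 1 (adjusted p = 0.345). It passed the threshold by edgeR's exact test (adjusted p = 0.0437), by which 5.66% of all genes were IHC-enriched, and by DESeq2 (0.0145). Irx3 had medians of 1.59 and 1.09 CPM. Irx1, 665057 bp from Irx2 on chromosome 13, had at most 3 counts in a library, and Irx6, 298001 bp from Irx5 on chromosome 8, had 34 counts in OHC replicate 5 and at most 1 in the other libraries.

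**Figure D2:**
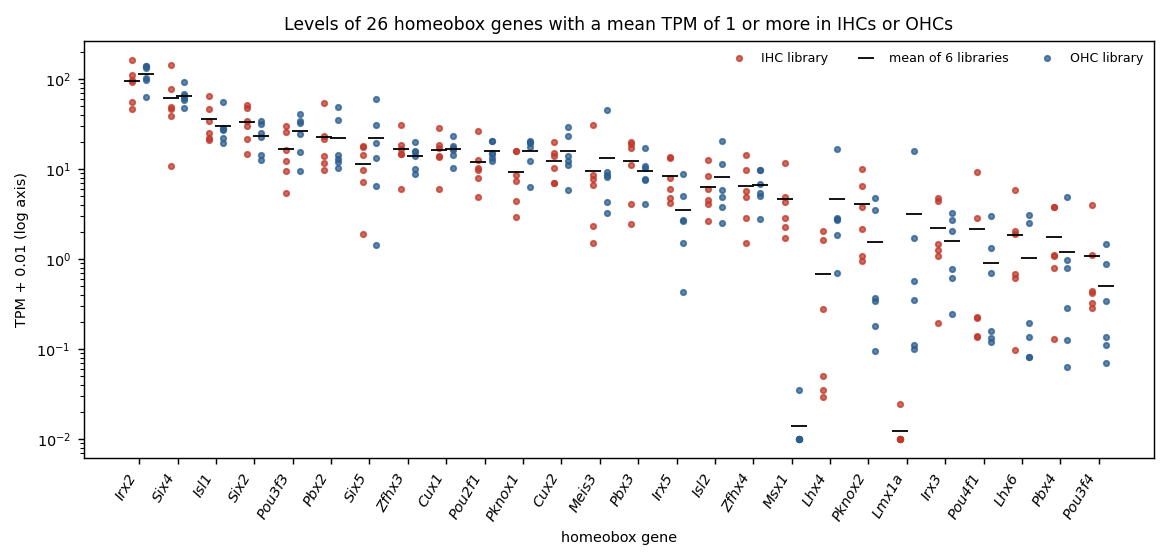
TPM plus an offset of 0.01 on a log axis for the 26 members with a mean TPM of 1 or more in IHCs or OHCs, with 1 point per library (red IHC, blue OHC) and a black bar at the mean of 6 libraries, sorted by the higher mean. Irx2 and Six4 lead in both cell types, and Msx1 and Lmx1a are the members seen in 1 cell type but at or near the offset in the other.

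Levels per length were compared between members as TPM. A mean TPM of at least 1 was reached by 24 members in IHCs and 23 in OHCs, 21 of them in both. Some of these had a median below 1 TPM, raised by single high libraries: Pou4f1 and Pou3f4 in IHCs, and Lmx1a, Pknox2, Pbx4 and Lhx6 in OHCs. The 5 highest in IHCs were Irx2, Six4, Isl1, Six2 and Pbx2, and in OHCs Irx2, Six4, Isl1, Pou3f3 and Six2. The TPM ranges of neighbours in this order overlapped throughout. TPM also scales with the share of ribosomal RNA in a library, which cancels when genes are compared within each library. Irx2 exceeded Six4 in 6 of 6 IHC and 6 of 6 OHC libraries, with median ratios of 1.64 and 1.75. Six4 exceeded Isl1 in 4 of 6 IHC and 6 of 6 OHC libraries. Of the next neighbours in IHCs, Isl1 exceeded Six2 and Six2 exceeded Pbx2 in 5 of 6 libraries each. In OHCs Isl1 exceeded Pou3f3 in 4 of 6 libraries and Pou3f3 exceeded Six2 in 3 of 6. With ribosomal RNA genes left out of the scaling, the mean of Irx2 was 240 TPM in IHCs and 263 TPM in OHCs. Pou4f3, the hair cell POU gene outside the set, had 715 and 675 TPM on the first scale.

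The Six2-related genes act with EYA proteins early in the formation of the otic vesicle. Six4 had 135, 204 and 419 CPM in the IHC libraries (lowest, median and highest), against 185, 215 and 325 CPM in the OHC libraries. The OHC values fell within the IHC range, and the log2 fold change was -0.03 (SE 0.25, adjusted p = 0.969 by the quasi-likelihood test, 95% interval -0.55 to 0.50). Six2 had 16.8, 36.7 and 62.1 CPM in the IHC libraries, against 9.09, 20.3 and 39.2 CPM in the OHC libraries, with a log2 fold change of -0.85 (SE 0.44, adjusted p = 0.269). Six5, which adjoins the myotonic dystrophy kinase gene Dmpk, ranged from 1.95 to 73.3 CPM among OHC libraries, a wider span than the 9.03 to 28.1 CPM of IHC libraries, and its log2 fold change was 0.69 (SE 0.58, adjusted p = 0.524). Six3, 54934 bp from Six2 on chromosome 17, had at most 7 counts in a library. Six6, 154709 bp from Six4 on chromosome 12, had 38 counts in OHC replicate 2 and at most 18 elsewhere.

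The POU genes pair a homeodomain with a second, POU-specific DNA-binding domain. Pou3f3, a gene of nervous system and kidney development, had 33.7, 49.1 and 68.9 CPM in the IHC libraries, against 33.6, 66.4 and 103 CPM in the OHC libraries. The groups shared their lower ends and the log2 fold change was 0.37 (SE 0.30, adjusted p = 0.515 by the quasi-likelihood test). Pou2f1, the broadly expressed OCT1 gene, was close to even, with medians of 78.4 and 88.6 CPM and a log2 fold change of 0.15 (SE 0.26, adjusted p = 0.779, 95% interval -0.39 to 0.68). Of its exonic bases 18.1% overlap Cd247 on the opposite strand. Pou3f4, the gene of an X-linked deafness with a role in otic mesenchyme, had medians of 0.929 and 0.196 CPM (log2 fold change -1.38, SE 0.96, adjusted p = 0.428). Pou4f1, which is expressed in spiral ganglion neurons, had 564 counts in IHC replicate 5, 55.6% of its summed CPM, and medians of 0.821 and 0.575 CPM. Its log2 fold change was -1.51 (SE 1.18, adjusted p = 0.488) and turned to 0.23 without that library. The neuron markers of that library summed to 1090 CPM, within the IHC range, and Nefm held 53.1% to 78.4% of that sum in IHC libraries. The part of neurons in the Pou4f1 values was not tested. The untested Pou3f1, Pou3f2 and Pou4f2 had medians of at most 0.106 CPM in both cell types, and 144 of the counts of Pou3f1 came from OHC replicate 2.

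**Figure D3:**
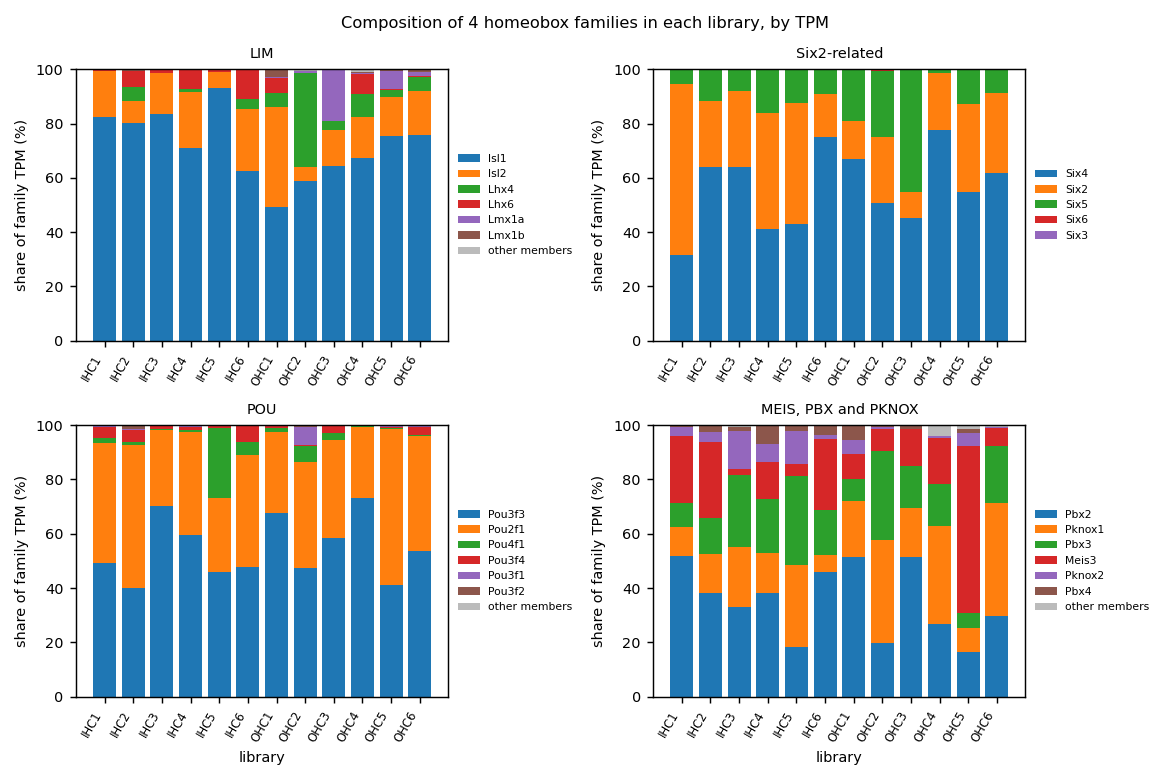
Stacked bars of the share of summed family TPM (%) held by each member in each of the 12 libraries, for the LIM, Six2-related, POU and MEIS, PBX and PKNOX groups. Isl1 is the largest LIM member in every library, at 49.2% to 93.2%, while the makeup of the MEIS, PBX and PKNOX group differs from library to library, with Pbx2 at 16.5% to 51.7%.

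MEIS, PBX and PKNOX proteins serve as partners of HOX and other homeodomain proteins. Pbx2 had the highest mean TPM of them in both cell types, although in OHCs Pknox1 had the higher median (18.6 against 13.6 TPM). In CPM, Pbx2 had 14.1, 29.8 and 59.6 in the IHC libraries, against 12.6, 19.7 and 47.6 in the OHC libraries. The groups overlapped over nearly all of their range (log2 fold change -0.44, SE 0.43, adjusted p = 0.595 by the quasi-likelihood test). Of the exonic bases of Pbx2 6.16% are shared with Gpsm3 on the same strand, where counts cannot be assigned with certainty. Pbx3, Pbx4 and Pknox1 had log2 fold changes of -0.55, -0.79 and 0.48, with adjusted p-values of 0.459, 0.694 and 0.49. The value of Pbx4 was -1.92 without OHC replicate 1, which held 4.44 CPM against at most 1.47 CPM in the other OHC libraries, and -0.38 without IHC replicate 4. Pknox2 had 6.52, 16.3 and 45.8 CPM in the IHC libraries, against 0.398, 1.48 and 20.8 CPM in the OHC libraries. In 4 OHC libraries it lay below every IHC library, and replicates 1 and 5 stood at 16.6 and 20.8 CPM, so that the log2 fold change of -1.60 (SE 0.86) had an adjusted p of 0.292. Meis3 had medians of 11.6 and 8.37 CPM, but OHC replicate 5 reached 69.8 CPM, and the log2 fold change of 0.35 (SE 0.76, adjusted p = 0.828) turned to -0.98 without it (adjusted p = 0.449). Meis1 had its highest value in the same library, 5.44 CPM against a median of 0.579 CPM, and Meis2 had 246 of its counts in OHC replicate 4.

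The ZFHX and CUX genes encode large proteins with several DNA-binding domains, and all 4 were tested. Cux1 was the most even member across libraries, with 124, 161 and 184 CPM in the IHC libraries, against 104, 130 and 162 CPM in the OHC libraries, coefficients of variation of 12.4% and 15.9%. Its log2 fold change was -0.28 (SE 0.19, adjusted p = 0.428 by the quasi-likelihood test). Cux2 had medians of 60.1 and 51.3 CPM and a log2 fold change of -0.04 (SE 0.32, adjusted p = 0.963). Zfhx3, which is known for its role in circadian rhythm, had 59.2, 128 and 446 CPM in the IHC libraries, against 76.5, 93.4 and 138 CPM in the OHC libraries. The lowest value of all was an IHC library, replicate 2, and the highest was IHC replicate 1, the library with the most ribosomal RNA. The log2 fold change was -0.84 (SE 0.35, adjusted p = 0.168) and was -0.32 without IHC replicate 1 (adjusted p = 0.519). Zfhx4 had medians of 43.7 and 37.8 CPM (log2 fold change -0.24, adjusted p = 0.787).

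**Figure D4:**
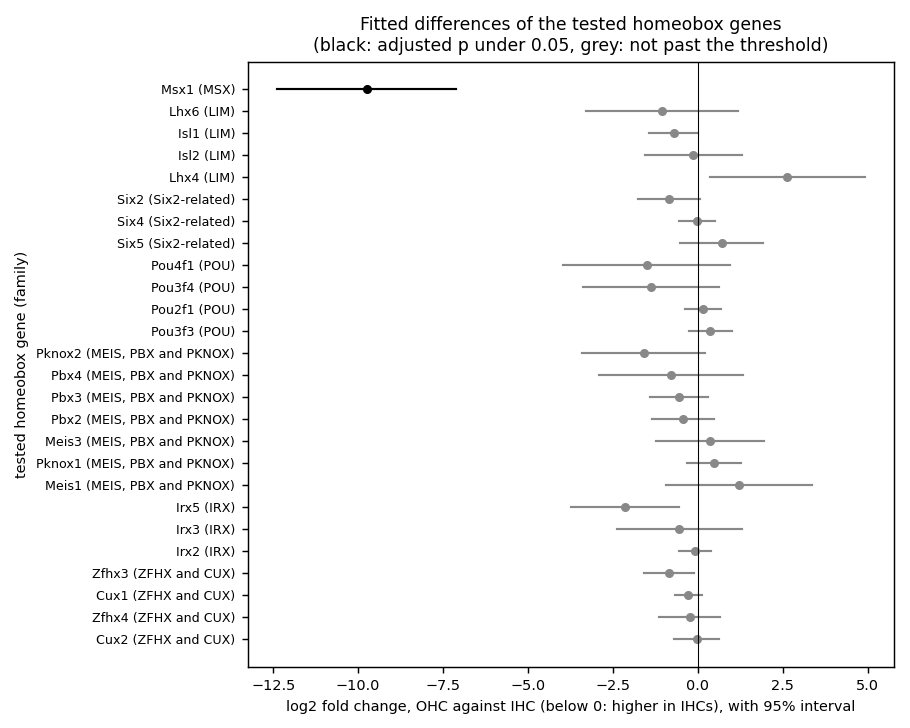
Log2 fold changes of OHCs against IHCs (points) with 95% intervals (lines) for the 26 tested members, grouped by family, with values below 0 higher in IHCs. Msx1, in black, is the only member past the threshold of the quasi-likelihood test, at -9.75, and the grey members include 5 whose interval stays within 1 on either side of 0.

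Over the 26 tested members the log2 fold change was below 0 in 19 and above 0 in 7, with a median of -0.36 beside -0.04 for all tested genes. By approximate intervals, calculated from the test statistic as described with the processing, the estimates were bounded closely for few of them. The 95% interval lay wholly between -1 and 1 for 5 members, Six4, Pou2f1, Irx2, Cux1 and Cux2 (19.2% of those tested, beside 16.1% of all tested genes), so a log2 difference of 1 between IHCs and OHCs was outside the interval for these. For the other 20 that did not pass the test, the spread between libraries left room for larger differences in at least 1 direction.

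The DLX, BAR, HMX, OTX and GBX genes act in the patterning of the forebrain, jaw and vestibular part of the ear, and none of these 14 members was tested. Dlx1, Dlx2, Dlx3 and Dlx6 had median values of at most 0.0926 CPM in either cell type, while Dlx1 had 119 counts in OHC replicate 4. Of the exonic bases of Dlx1 60.2% overlap the antisense gene Dlx1as, and without a stated strand setting their reads cannot be told apart. Otx2, a head and inner ear patterning gene, had 0.0234, 0.0972 and 7.30 CPM in OHCs and at most 0.0919 CPM in IHCs. Its high OHC libraries were replicate 4, with 251 counts, and replicate 1, with 42. Otx1 had 22 counts in OHC replicate 3, Hmx3 at most 10 counts, Barx2 at most 5, and Barhl2 and Gbx2 at most 4. Of the exonic bases of Gbx2 44.0%, and of those of the LIM gene Lhx1 37.9%, overlap a gene on the opposite strand, so their few counts carry the same uncertainty.

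Several members owed most of their signal to 1 library. Among the 42 members with at least 20 counts in all, 10 (23.8%) had more than 50% of the summed CPM in a single library, beside 28.0% of the 21210 genes with as many counts. They were Irx6, Pou3f1, Otx2, Meis2, Dlx1, Lmx1a, Otx1, Lmx1b, Pou4f1 and Lhx4. The library was an OHC library for 9 of them and IHC replicate 5 for Pou4f1, a split that was not set beside that of all genes. OHC replicate 4 was the highest library of Dlx1, Otx2 and Meis2, and OHC replicate 2 that of Pou3f1 and Lhx4. These members therefore had low medians beside high maxima, as Pou3f1 shows with 0.0490 and 4.39 CPM among OHC libraries.

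**Figure D5:**
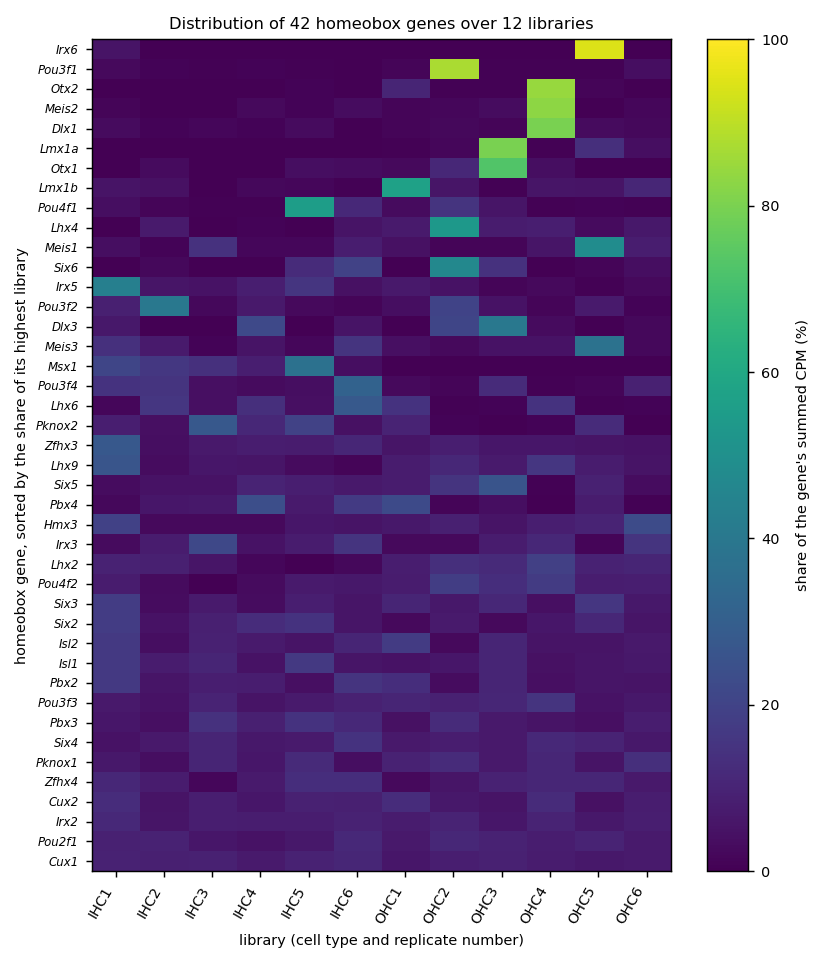
Heat map of the share (%) of the summed CPM of a gene found in each of the 12 libraries, for the 42 members with at least 20 counts in all, sorted by the share of the highest library. At the top, 10 members have over 50% in 1 library, from 94.5% for Irx6 downwards, and at the bottom the most even member, Cux1, has at most 10.6%.

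The other homeobox genes and the partner genes give the setting of these values. Of 92 homeobox genes outside the set, 24 were tested, 4 were IHC-enriched and 2 OHC-enriched, and 37 stayed at or below the floor. These calls were 16.7% and 8.33% of the 24, beside 3.81% and 2.44% of all tested genes, for a list chosen with earlier results known. Emx2, which sets hair cell orientation, was among the IHC-enriched genes (log2 fold change -1.39, adjusted p = 0.0067 by the quasi-likelihood test), as were Zfhx2 (-1.54, adjusted p = 0.0477) and Zhx3 (-0.88, adjusted p = 0.0272). Prox1 (2.92, adjusted p = 0.000467) was among the OHC-enriched genes. The median log2 fold change of the 24 was -0.36, as for the 26 tested members. Among the partners, 1 of 9 tested LIM partners was IHC-enriched, Ssbp3 (-0.94, adjusted p = 0.0342), as were 1 of 6 partners of Six2-related proteins, Eya2 (-2.66, adjusted p = 0.0034), and 1 of 5 Groucho corepressors, Tle5 (-2.01, adjusted p = 0.0131), and 0 were OHC-enriched.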

How the data were processed

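Bulk RNA-seq of 12 libraries was analysed, 6 of IHCs and 6 of OHCs, grouped by the sample titles. The authors deposited 1 file of unnormalized read counts for each library, made with STAR and HTSeq (intersection-nonempty mode) against GRCm39 and GENCODE vM27, after trimming with Trimmomatic per the labels. Tool versions and the strand setting are not given in the sources used here. RNA was amplified from random primers without molecular identifiers, so counts include amplification copies.

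Counts were fitted in edgeR 4.0.16 (R 4.3.3): filterByExpr with the cell type as group (min.count 10, min.total.count 15), TMM, estimateDisp, glmQLFit and glmQLFTest, with an adjusted p threshold of 0.05 over all genes. The SE of a log2 fold change was not estimated by the fit. It was calculated as the absolute log2 fold change, which includes a small added count, divided by the square root of the quasi-likelihood F statistic. The intervals were built from this SE and a t quantile, so SEs and intervals are approximate. The quasi-likelihood test was also run on counts drawn from the fitted means and spreads, with known changes in some genes. That run does not show how the test treats single high libraries or groups near the floor. CPM uses the TMM-scaled library size without a pseudocount. TPM uses exon lengths of vM39, which matched 54749 of 55416 genes (98.8%), while counts rest on vM27. DESeq2 1.42.0 and other settings were alternatives. A group at or below 3 counts per library was treated as being at the floor. Named members were those past the threshold, those whose groups did not overlap, the 5 highest in TPM in either cell type, Msx1, and examples per family. The members, lists and tests were chosen with earlier results of these data known, and the members Irx5, Lhx4, Zfhx3, Pknox2 and those with high single libraries were in part named after their values were seen. Lists of hair cell, supporting cell, glia, macrophage and erythroid markers were also summed. Some further items are not reported here.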

Additional observations from a re-analysis of the deposited data

Results flagged for a closer look

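In 67 groups of 6 libraries with at least 10 counts of a member in 1 library, 22 had a highest library whose gap to the next was over 0.625 of the range of the group. Chance alone flags about 1 in 20 groups when values are normally distributed, with highest and lowest libraries that stand apart counted together. Values on a linear CPM scale have long upper tails. By the same rule a high library stood apart in 34.5% of 38022 groups over all genes, beside 32.8% of the member groups. In IHCs it was 35.7% of all genes and 13.8% of members, in OHCs 33.4% and 47.4%.

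OHC replicate 2 stood apart for 6 members: Lhx4 at 32.5 CPM, Six6 at 1.16 CPM, Pou3f1 at 4.39 CPM, Pou3f2 at 0.457 CPM, Pou4f1 at 4.70 CPM and Zfhx3 at 138 CPM. OHC replicate 3 stood apart for Isl1 at 63.1 CPM, Lmx1a at 16.4 CPM and Otx1 at 0.597 CPM. In OHC replicate 4 these were Dlx1 at 3.46 CPM, Meis2 at 7.15 CPM and Otx2 at 7.30 CPM, and in OHC replicate 5 Meis1 at 5.44 CPM, Meis3 at 69.8 CPM and Irx6 at 1.13 CPM. OHC replicate 1 held Lmx1b at 2.11 CPM and Pbx4 at 4.44 CPM, and OHC replicate 6 held Hmx3 at 0.234 CPM, from 10 counts.

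Among IHC libraries, replicate 1 stood apart for Irx5 at 47.8 CPM and Zfhx3 at 446 CPM, replicate 2 for Pou3f2 at 0.904 CPM and replicate 5 for Pou4f1 at 17.3 CPM. IHC replicate 1 had the highest share of ribosomal RNA, 56.9% of its counts on genes. The cause of these single high libraries was not tested.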

How the results depend on the processing

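Msx1 was IHC-enriched in each setting in which it was tested. It was not tested where at least 10 counts were asked of every library, which left 0 IHC-enriched members. EdgeR's exact test and DESeq2 gave 2 IHC-enriched members each (Msx1 and Irx5), the fit without a filter 1 OHC-enriched member (Lmx1a) and DESeq2 3 (Lhx4, Lmx1a and Otx2). Over all genes there were 506 IHC-enriched and 324 OHC-enriched calls, which became 893 and 918 without a filter, 1339 and 1590 by DESeq2, and 519 OHC-enriched by the exact test. The median log2 fold change of all genes was 0.11 without a filter. For the other homeobox and partner genes, 7 and 2 calls became 13 and 4 by DESeq2, and 1 was OHC-enriched with 10 counts in every library. Leaving out 1 library gave 1 IHC-enriched and 0 OHC-enriched members in all 12 fits, and 4 to 9 IHC-enriched and 1 to 2 OHC-enriched calls for those other genes, with 4 without OHC replicate 1, 3 or 4, and 1 without IHC replicate 1, 2 or 6 or OHC replicate 2, 3, 4 or 6. Counts of members at a TPM of 1 stayed within 20 to 27, also with CPM or without ribosomal RNA, the last chosen after seeing the data, as were the alternatives for the other genes.

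Leaving out 1 library turned the sign of members that had not passed the test. The log2 fold change ranged from -0.54 to 0.14 for Isl2, from -0.16 to 0.19 for Six4, from -2.48 to 0.23 for Pou4f1, from -0.24 to 1.84 for Meis1, from -0.98 to 0.65 for Meis3, from -0.18 to 0.011 for Irx2 and from -0.23 to 0.11 for Cux2.

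No label says whether the replicate numbers pair the libraries. The deviations of IHC and OHC libraries with the same number correlated at -0.03 to 0.02. Libraries with different numbers correlated at most at 0.053, so these values cannot tell paired from unpaired libraries. With the replicate number as a block there was 1 OHC-enriched member (Lhx4, adjusted p = 0.0475) against 2.95% of all genes, and the log2 fold changes of Six4 and Meis3 were 0.049 and -0.17. At this depth the 10 members with at most 3 counts in every library were not measured above the floor.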

Other observations

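The remaining marker lists gave the following summed levels. The 10 hair cell markers summed to 5739 to 8650 CPM in IHC and 4583 to 5811 CPM in OHC libraries, with 4 IHC-enriched (Gfi1, Otof, Espn and Calb2) and 1 OHC-enriched (Pcdh15) by the quasi-likelihood test. The 11 supporting cell markers summed to 358 to 718 and 200 to 370 CPM, with Sox2 and Gjb2 IHC-enriched. Gjb2 held 20.4% to 63.2% of this sum in IHC and 0.830% to 18.1% in OHC libraries, and without it the ranges were 173 to 307 and 186 to 329 CPM. The log2 fold changes of Fgfr3 (2.12, adjusted p = 0.0722), Hes5 (1.32) and Hey1 (0.50) were above 0 but did not pass the test, and the median of the list was -0.22. The 6 glia markers summed to 20.9 to 75.4 and 7.91 to 44.9 CPM with 0 of 4 tested past the threshold, and the 6 macrophage markers to 1.75 to 19.6 and 0.0872 to 5.47 CPM with 0 of 1. Erythroid markers were at most 3.20 CPM in sum, in OHC replicate 4.

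Among the neighbouring member genes, some pairs set an abundant gene beside a barely detected one, and others had low medians in both genes. Six2, with medians of 36.7 and 20.3 CPM in IHCs and OHCs, is 54934 bp from Six3, with 0.0932 and 0.122 CPM. Hmx3 and Hmx2, 3847 bp apart, and Dlx6 and Dlx5, 9235 bp apart, were all at medians below 0.1 CPM, and Dlx1 and Dlx2 are 9426 bp apart.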
